A study of Drosophila melanogaster with 13 samples.

Results

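Heads of adult Drosophila melanogaster carrying an egg mutation over the balancer chromosome CyO were compared with heads of control flies. The groups were taken from the genotype label: 3 arrays of egg heads (yw; egg235/CyO) and 3 arrays of control heads (yw; +/CyO), so the comparison holds 6 of the 13 arrays of the series. A further control array, a technical repeat of control replicate 1, has an empty column and was not analysed here. The other 6 arrays, 3 of Su(var)3-9 heads (yw; +/CyO; Su(var)3-906) and 3 of egg+Su(var)3-9 heads (yw; egg235/CyO; Su(var)3-906), shared the estimate of the spread and showed the egg chromosome beside a second mutation. All 4 genotypes carried yw and CyO, and the design calls the 3 arrays of each genotype biological replicates. Sex, age and the number of flies per sample are not given in the sources used here. The egg mutation was present on the whole chromosome opposite CyO, so the mutation and any linked variant of that chromosome cannot be told apart.

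The gene egg (eggless) encodes the fly homolog of SETDB1, an enzyme that methylates histone H3 at lysine 9. This mark is bound by HP1 proteins and is typical of heterochromatin, the compact chromatin around centromeres and along much of chromosome 4. Egg protein is known for its work in the ovary, where it is needed for egg development and for the silencing of transposable elements guided by piRNAs. No probe set carried the symbol egg, so the mutated gene itself was not measured and it gave no check of the genotype labels.

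Expression is given on a log2 scale for each probe set, the short probes that jointly read 1 transcript, so a difference of 1 is a change of 2-fold. Array medians lay between 5.71 and 6.14, and precision is limited by the small number of arrays. Across all probe sets, which are not independent observations, arrays of 1 group correlated at r of 0.9927 to 0.9957 for the control and 0.996 to 0.9978 for egg. Between both groups r was 0.9353 to 0.9632, and control replicate 2 gave the 3 highest of these values. Changes below are egg minus control on the log2 scale, with the standard error after ± (n = 3 arrays per group) and adjusted p-values from limma with Benjamini-Hochberg adjustment over 18769 probe sets. A gene rose or fell where its adjusted p was under 0.05. The p-values measure the spread between these samples.

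Markers of head tissues were present on all 6 arrays, and markers of other body parts set the groups apart. The median of 15 neuronal genes was 9.67, 9.85 and 9.58 on control arrays 1 to 3 and 10.62, 10.60 and 10.61 on egg arrays 1 to 3. The median of 12 photoreceptor genes was 12.16, 12.43 and 12.08 in the control and 12.91, 13.02 and 12.93 in egg. Neither pair of groups overlapped, and egg was higher in both. The median of 23 testis genes went the other way, with 9.83, 9.37 and 9.92 in the control and 7.35, 7.51 and 7.56 in egg. For 24 gut enzyme genes it was 10.69, 10.45 and 10.94 in the control and 7.58, 6.91 and 6.82 in egg. For 20 genes of the accessory gland and ejaculatory bulb, male reproductive glands, it was 11.43, 10.90 and 11.25 in the control and 8.73, 9.19 and 9.26 in egg. All 3 lists were lower on every egg array than on every control array. In the sarcomere list of 17 muscle genes the control lay between 12.37 and 12.59 and egg between 11.33 and 11.70. The part of these other tissues in the changes described here was not tested, and in such bulk samples fewer cells of a type and less RNA per cell cannot be told apart.

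**Figure D1:**
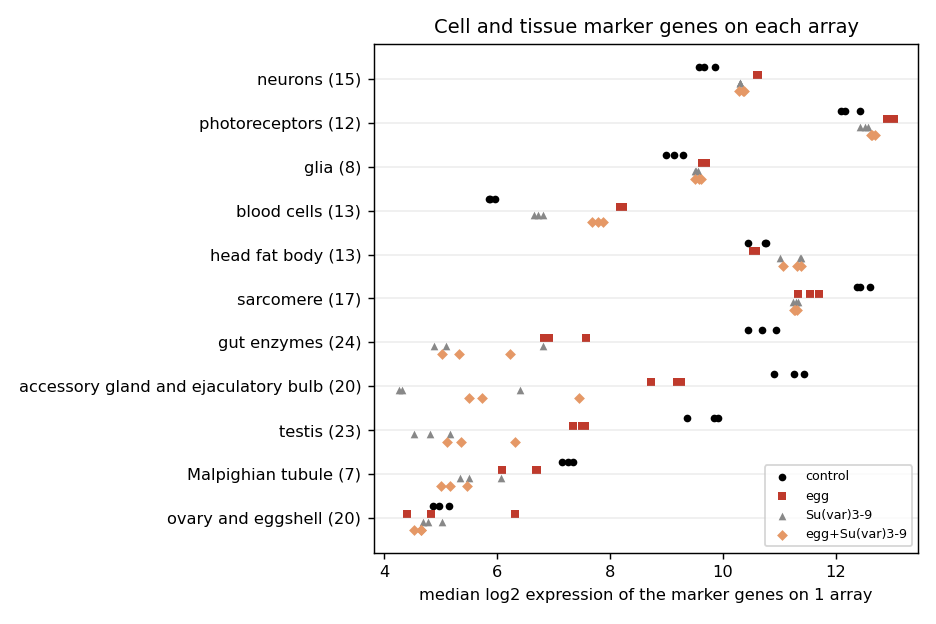
Median log2 expression of marker gene lists on each of the 12 arrays, with the number of measured genes after each name and 1 symbol per array. The 3 egg arrays lie to the right of the 3 control arrays for neurons, photoreceptors, glia and blood cells, and to the left for sarcomere, gut enzyme, male gland, testis and Malpighian tubule genes.

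Across the genome most genes passed the threshold, which sets the background for every group of genes below. Each gene was represented by its brightest probe set. Of 11981 genes 7471 passed (62.4%), 4359 of them higher in egg (36.4%) and 3112 lower (26.0%). The sizes were uneven: 293 genes rose at least 2-fold (2.45%) and 1595 fell at least 2-fold (13.3%). On 4873 genes all egg arrays lay above all control arrays (40.7%), and on 3381 all lay below (28.2%). The median change of all genes was 0.09. Counted by probe set, 6000 rose (32.0%) and 3550 fell (18.9%). The balance of rises and falls depended on the scaling: 62.8% of the calls were rises on the deposited values, 80.4% after centring each array on its median and 37.8% after cyclic loess. The median change of all probe sets was 0.09, 0.32 and -0.01 under these 3 scalings, so small changes are read against that shift.

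**Figure D2:**
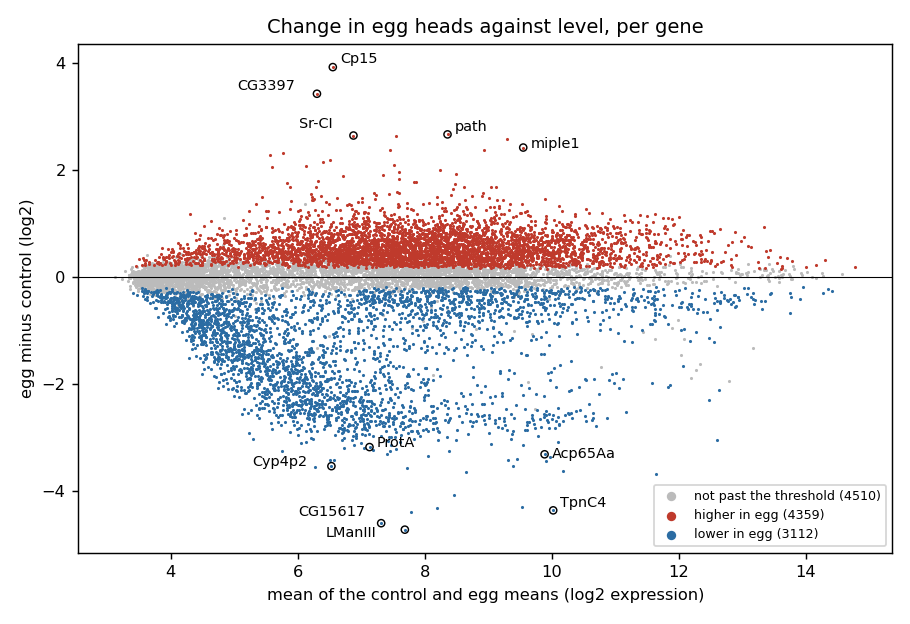
Egg minus control (log2) against the mean of both group means (log2 expression), 1 point per gene, with 4359 genes higher in egg in red, 3112 lower in blue and 4510 not past the threshold in grey. The falls reach further from 0 than the rises, and the circled names are genes described in the text.

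The largest rises rested on arrays that agreed closely, apart from Cp15. CG3397, a gene on arm 3R whose role is not described here, measured 4.45, 4.71 and 4.60 in the control and 7.88, 8.12 and 8.06 in egg, a change of 3.43 ± 0.12 (adjusted p = 2.86e-09). The groups lay far apart and each was tight. Cp15, which encodes a chorion protein of the eggshell, measured 4.48, 4.69 and 4.59 in the control and 11.44, 6.01 and 8.10 in egg (3.93 ± 0.92, adjusted p = 0.00283). All egg arrays were above the control, but they differed widely among themselves, with replicate 1 the highest. Without that array the change of Cp15 was 2.47 and still passed. Cks30A, a cyclin-dependent kinase subunit known from meiosis in the ovary, measured 6.25, 6.02 and 6.39 in the control and 8.88, 8.88 and 8.84 in egg. The egg arrays of Cks30A were nearly level, unlike those of Cp15. The amino acid transporter gene path measured 7.08, 7.03 and 6.96 in the control and 9.53, 10.02 and 9.53 in egg, and miple1, a gene of the midkine family of growth factors, measured 8.34, 8.37 and 8.30 against 10.73, 10.81 and 10.75. Neither overlapped.

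The 12 largest falls included digestive enzyme and flight muscle genes. LManIII, an alpha-mannosidase gene on 2L, measured 9.87, 9.79 and 10.48 in the control and 5.71, 5.29 and 4.99 in egg (-4.72 ± 0.60, adjusted p = 2.80e-05). TpnC4, a troponin C of flight muscle, measured 12.52, 11.70 and 12.39 in the control and 6.89, 8.51 and 8.13 in egg (-4.36 ± 0.95, adjusted p = 0.00185). No egg array reached a control array in either gene. CG15617 measured 9.72, 9.10 and 10.02 against 4.96, 5.16 and 4.93, and Cyp4p2, a cytochrome P450 gene, measured 8.46, 8.26 and 8.18 against 5.0, 4.70 and 4.60 (-3.53 ± 0.12, adjusted p = 2.64e-09). Of the 24 gut enzyme genes 16 fell and 1 rose (median -2.63), and of the 17 sarcomere genes 14 fell and none rose, with a median of -0.73. In the testis list 21 of 23 fell and none rose (median -2.44). In the accessory gland and ejaculatory bulb list 15 of 20 fell and 1 rose (median -1.97), but 9 fell without control replicate 1 or 3 or egg replicate 1 or 2, and 9 with trend and robust eBayes. Fitted on the egg and control arrays alone, 18 of these gland genes fell and none rose, and 22 gut enzyme genes fell and 1 rose. Of 7 Malpighian tubule genes 5 fell and 2 rose (median -0.52), against 3 and 2 after centring and 5 and none after cyclic loess. The ovary and eggshell list, which holds Cp15, was mixed, with 3 of 20 higher, 5 lower and a median of 0.02. Its median signal was 6.32, 4.41 and 4.83 on egg arrays 1 to 3, against 4.98, 5.15 and 4.86 on control arrays 1 to 3. Without egg replicate 1 it held 8 falls, without egg replicate 2 it held 6 rises, and after centring it held 7.

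Genes of nerve cells rose together. All 15 genes of the neuronal marker list rose. That list was drawn up with genes of synapses, channels and GABA, such as Syt1, para and Gad1. Its count and those of the synaptic, channel and GABA lists below are thus not independent. In the list of 27 synaptic vesicle and active zone genes 26 rose and none fell, with a median of 0.83. In that of 28 channel genes, drawn up as voltage-gated, 27 rose and none fell, with a median of 0.81. Rab3-GEF, an exchange factor for a vesicle GTPase, stood out in the first list at 7.26, 7.17 and 7.29 in the control and 9.15, 9.40 and 9.17 in egg (2.0 ± 0.09, adjusted p = 1.96e-08). The second largest change among the named members of that list was that of Rbp, the RIM-binding protein of active zones, at 1.31 ± 0.15. Among the channels the sodium channel gene NaCP60E rose by 1.27 ± 0.12 and the potassium channel gene Shab by 1.26 ± 0.16. The channel list also held the mechanosensory channel gene nompC, which overlapped between groups (0.02 ± 0.12, adjusted p = 0.912).

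Most transmitter and peptide genes rose as well. Of 15 genes for GABA and glutamate signalling 14 rose and none fell (median 0.75), led by Gabat, the GABA transaminase, at 5.46, 5.50 and 5.27 in the control and 7.33, 7.16 and 7.18 in egg (1.81 ± 0.18, adjusted p = 3.09e-06). Its groups did not overlap. Of 13 monoamine genes 10 rose and none fell (median 0.80), among them the dopamine receptor gene Dop1R1 (1.23 ± 0.09) and Tbh (1.10 ± 0.12), the enzyme that makes octopamine. The enzyme gene e, ebony, did not pass (-0.26 ± 0.18, adjusted p = 0.259), but it fell without egg replicate 2 (-0.47, adjusted p = 0.0185) and after cyclic loess (-0.52, adjusted p = 0.0324). Neuropeptide genes were more mixed: 20 of 29 rose and 3 fell (median 0.64), with sNPF at 1.37 ± 0.13 and Capa at 1.23 ± 0.10. The 3 that fell were Akh, the adipokinetic hormone (-0.75 ± 0.17), Nplp3 (-0.29 ± 0.06) and AstCC (-0.27 ± 0.09). AstCC did not pass without control replicate 1 or 2 or egg replicate 1 or 3 (changes of -0.27 to -0.23). After centring Nplp3 was at -0.07 (adjusted p = 0.388) and AstCC at -0.04 (adjusted p = 0.74), and the list held 23 rises and 1 fall. All 8 glia genes rose (median 0.67), with wrapper, an adhesion protein of glia that enwrap neurons, at 1.16 ± 0.14. After cyclic loess the rises numbered 11 of 15 for GABA and glutamate, 8 of 13 for monoamines, 16 of 29 for neuropeptides and 6 of 8 for glia.

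In the eye, genes of the light response rose, while the counts for pigment genes depended on the scaling. All 12 photoreceptor genes rose (median 0.75), from 1.28 ± 0.08 for the phosphatase rdgC to 0.19 ± 0.07 for the arrestin Arr2, whose call was lost without control replicate 1 or 3 or egg replicate 1 or 3 (changes of 0.16 to 0.19). Of 12 genes for the brown ommochrome pigment and its granules 9 rose and 1 fell (median 0.38). The risers g (0.90 ± 0.09) and car (0.89 ± 0.10) act in vesicle traffic to pigment granules, and the gene that fell, st, encodes a pigment precursor transporter (-0.43 ± 0.08, adjusted p = 0.000676). After cyclic loess 4 of these genes rose and 1 fell. Of 7 genes of the red pteridine pathway only Pu, GTP cyclohydrolase, rose (0.32 ± 0.09) and none fell, but after centring 5 rose, and after cyclic loess none rose and 3 fell. Without egg replicate 2 Pu was at 0.24 and did not pass (adjusted p = 0.0508), and without control replicate 2 the list held 2 rises. Clock genes rose in 11 of 12 cases, led by Pdp1 and vri, transcription factors of the clock, at 1.46 ± 0.12 and 0.99 ± 0.09, and after cyclic loess in 6 with 1 fall.

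Blood cell genes gave the highest list median, 1.02, with 11 of 13 rising and 2 falling. Sr-CI, a scavenger receptor of phagocytic blood cells, measured 5.42, 5.65 and 5.59 in the control and 8.2, 8.18 and 8.23 in egg (2.65 ± 0.08, adjusted p = 2.64e-09). Its neighbour on arm 2L, Sr-CIII, measured 4.43, 4.61 and 4.77 against 7.01, 6.75 and 7.05 (2.33 ± 0.10, adjusted p = 1.96e-08). The groups did not overlap in either gene. NimC1, a receptor for bacteria on blood cells, measured 6.47, 6.59 and 6.33 in the control and 8.54, 8.55 and 8.60 in egg (2.10 ± 0.09), and Hml, hemolectin, 7.96, 8.04 and 7.76 against 9.45, 9.25 and 9.37 (1.44 ± 0.09). Neither overlapped. The genes eater, crq and Ppn, which the rule for named genes did not pick and which are given here after their values were seen, rose by 1.17 ± 0.14, 1.14 ± 0.13 and 1.02 ± 0.07. The 2 genes that fell, Sr-CII (-0.47 ± 0.11) and Sr-CIV (-0.75 ± 0.08), are relatives of the first pair. After centring Sr-CII did not pass (-0.24, adjusted p = 0.0531), and after cyclic loess 10 rose and 2 fell.

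Immune effector and stress genes did not move as groups. Of 12 antimicrobial peptide genes 5 rose and 2 fell (median 0.34): the drosomycin-like genes Drsl5 and Drsl4 rose by 1.31 ± 0.13 and 0.98 ± 0.09, while Def, defensin, and Drsl3 changed by -0.67 ± 0.12 and -1.44 ± 0.31. After centring 9 rose, and after cyclic loess 3. Of 22 genes of recognition and Toll or Imd signalling 10 rose (45.5%) and 1 fell (4.55%), with a median of 0.25. Centring gave 16 rises, and cyclic loess 4 rises and 9 falls. The Toll ligand gene spz and PGRP-LA, of the peptidoglycan recognition family, rose by 0.84 ± 0.09 each, and PGRP-SC2, which encodes an amidase, fell (-1.25 ± 0.15). Of 5 Turandot stress genes TotC alone passed (3 genes after centring), at 6.77, 7.55 and 6.60 in the control and 8.51, 8.65 and 9.10 in egg (1.78 ± 0.21, adjusted p = 1.42e-05). Its groups did not overlap. The median signal of the Turandot list was 3.925 to 4.162 on the control and egg arrays, below the 40th percentile of all probe sets (5.05). Of 14 heat shock and chaperone genes 6 rose and 4 fell (median 0.17), or 2 and 5 after cyclic loess and 3 and 4 without egg replicate 2. The co-chaperone gene stv rose (0.83 ± 0.09), and the falls of Hsp60B (-2.67 ± 0.23) and Hsc70-2 (-2.06 ± 0.19) are those of genes known for expression in the testis.

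Detoxification genes changed in both directions, also between neighbours. Of 34 glutathione transferase genes 7 rose and 16 fell (median -0.19), with 11 and 12 after centring and 1 and 22 after cyclic loess, so the excess of falls depended on the scaling. The largest changes came from the GstE cluster on arm 2R. In the order of the Release 6 annotation its genes changed by -0.94 ± 0.13 (GstE10), 0.20 ± 0.07 (GstE1), 1.27 ± 0.10 (GstE2), -2.12 ± 0.09 (GstE3), 0.19 ± 0.08 (GstE4, adjusted p = 0.0692), -1.58 ± 0.07 (GstE5), -1.21 ± 0.08 (GstE6), -1.95 ± 0.10 (GstE7) and -0.40 ± 0.08 (GstE9). GstE2 and GstE3, which lie side by side, thus went in opposite directions. GstE3 measured 9.15, 8.94 and 9.22 in the control and 6.97, 6.87 and 7.14 in egg, and GstE7 7.94, 7.74 and 7.76 against 5.96, 5.75 and 5.87. GstE2 measured 7.86, 8.07 and 7.67 in the control and 9.25, 9.07 and 9.09 in egg. None of these 3 genes overlapped between groups. GstE1 did not pass without control replicate 3 or egg replicate 1 or 3 (changes of 0.17 to 0.20). After centring GstE4 rose (0.41, adjusted p = 0.00054) and GstE9 did not pass (-0.17, adjusted p = 0.0732), and GstE4 also passed without egg+Su(var)3-9 replicate 2 (0.19, adjusted p = 0.0463). Cluster members other than those 3 and GstE5 were named after their values were seen.

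Of 76 cytochrome P450 genes 25 rose (32.9%) and 23 fell (30.3%), near the shares of all genes (36.4% and 26.0%), and the median was 0.02. After centring 39 rose and 19 fell, and after cyclic loess 8 rose and 35 fell. A cluster of Cyp6a genes on arm 2R also held opposite changes side by side. Cyp6a17 measured 7.76, 7.93 and 7.57 in the control and 10.13, 10.14 and 10.10 in egg (2.37 ± 0.09, adjusted p = 4.21e-09), and the gene next to it, Cyp6a23, measured 9.03, 8.85 and 9.15 against 6.99, 7.11 and 7.05 (-1.96 ± 0.12, adjusted p = 1.40e-07). The groups of neither gene overlapped. Further along, Cyp6a9 fell (-1.10 ± 0.12) and Cyp6a20 rose (1.38 ± 0.09). Cyp6g1, known for insecticide resistance, changed by -1.57 ± 0.10. Cyp6a23, Cyp6a9 and Cyp6g1 were named after their values were seen. Probes of related family members can bind each other's RNA, and the share of such binding was not measured.

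On the deposited values the list medians of sense organ and cuticle genes changed little, beside a few large single changes. Of 45 odorant binding protein genes 15 rose (33.3%) and 9 fell (20.0%), against 36.4% and 26.0% of all genes. The median was 0.16, with 25 rises and 8 falls after centring and 9 and 10 after cyclic loess. Obp19b, on the X chromosome, measured 5.49, 5.73 and 5.04 in the control and 7.60, 7.53 and 7.70 in egg (2.19 ± 0.14, adjusted p = 1.89e-07). Its groups lay well apart. Obp56h rose by 1.21 ± 0.11 and Obp51a fell (-1.99 ± 0.22). Among 61 chemoreceptor genes 3 rose and none fell (median 0.03), with the co-receptors Ir76b at 0.82 ± 0.11 and Ir25a at 0.60 ± 0.08, but after centring 30 rose, and without control replicate 2 or Su(var)3-9 replicate 2 5 rose. The median signal of this list was 3.77 to 3.93 on the control and egg arrays, below the 40th percentile of all probe sets (5.05). At such low signal a lack of calls does not show steady expression. Without dim probe sets the median change of the list was 0.60. Ir76a, an ionotropic receptor outside that list, rose from 4.40, 4.27 and 4.59 to 6.84, 6.54 and 6.72 (2.28 ± 0.11). Of 60 cuticle protein genes 10 rose and 16 fell (median -0.05), with 24 and 11 after centring and 2 and 20 after cyclic loess. Without control replicate 1 the rises numbered 5 and without egg replicate 2 they numbered 6. Cpr49Ag rose by 0.93 ± 0.10, and Acp65Aa, an adult cuticle protein, measured 11.72, 11.22 and 11.68 in the control and 7.37, 8.60 and 8.73 in egg (-3.31 ± 0.28, adjusted p = 9.98e-07). Acp65Aa did not overlap.

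Energy metabolism genes were lower in egg. Of 13 glycolysis and gluconeogenesis genes 11 fell and none rose, with a median of -0.59. Hex-C, a hexokinase, measured 10.51, 10.50 and 10.62 in the control and 9.06, 9.19 and 9.09 in egg (-1.43 ± 0.08, adjusted p = 6.06e-08), and Pepck1, of gluconeogenesis, measured 13.12, 13.08 and 13.13 against 12.04, 12.24 and 12.26 (-0.93 ± 0.07). Both were lower on every egg array. The hexokinase gene Hex-A did not pass (0.08 ± 0.07, adjusted p = 0.382), but after centring it rose (0.30, adjusted p = 0.0043) and the list held 9 falls. Of 55 respiratory chain and ATP synthase genes 51 fell and none rose (median -0.41), and after centring 30 fell and 2 rose (median -0.18). Muscle genes, which fell beside them, are given above. Their part in this fall was not tested. Among 21 genes of fatty acid metabolism and fat storage 11 fell and 5 rose (median -0.25), against 8 and 7 after centring and 14 and 2 after cyclic loess. FASN2, a fatty acid synthase, fell (-1.67 ± 0.16), and SREBP, the transcription factor of lipid synthesis, rose (0.44 ± 0.10) but did not pass after cyclic loess (0.14, adjusted p = 0.201). Desat2, a desaturase, also rose (0.97 ± 0.23), with 4.81, 4.83 and 5.11 in the control and 6.47, 5.19 and 5.98 in egg. The head fat body list was balanced, with 4 of 13 higher (30.8%), 3 lower (23.1%) and a median of 0.06, but after centring 8 were higher and 2 lower. Its extremes were fit (1.03 ± 0.18), a secreted satiety signal, and the lipase gene mag (-2.31 ± 0.25).

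Chromatin genes rose in part, and by small amounts. Of 22 genes for H3K9 methylation partners and HP1 proteins 14 rose and 3 fell (median 0.35), and after cyclic loess 5 and 3. The kinase gene JIL-1 measured 6.46, 6.53 and 5.95 in the control and 7.22, 7.45 and 7.24 in egg (0.99 ± 0.13, adjusted p = 4.07e-05). ADD1, whose protein binds HP1, measured 5.77, 5.58 and 5.47 against 6.54, 6.81 and 6.31 (0.95 ± 0.13, adjusted p = 6.46e-05). Neither overlapped. The 3 that fell were Pof (-2.21 ± 0.20), whose protein coats chromosome 4, and the HP1 relatives HP6 (-1.61 ± 0.13) and HP1e (-0.47 ± 0.14), the last of which did not pass without egg replicate 2 (-0.36, adjusted p = 0.0596) or after centring (-0.24, adjusted p = 0.0931). Of 20 Polycomb and Trithorax genes 19 rose and none fell (median 0.49), with the remodeller gene kis at 0.83 ± 0.09 and Scm at 0.76 ± 0.12, and after cyclic loess 8 rose. The piRNA pathway, in which egg acts, showed 3 rises and 5 falls among 25 genes (median -0.08), with 1 rise without egg replicate 1 or 3, 9 after centring and none after cyclic loess. Gasz rose by 0.54 ± 0.10 but did not pass after cyclic loess (0.20, adjusted p = 0.101), and squ and mael, germline factors, changed by -1.49 ± 0.19 and -0.87 ± 0.16.

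List medians of protein synthesis genes changed little, and proteasome genes passed only as falls on the deposited values. Among 34 cytoplasmic ribosomal protein genes 1 rose, RpL39 (0.16 ± 0.06, adjusted p = 0.0445), and 6 fell (median 0.03), while centring gave 27 rises and 5 falls, cyclic loess none and 7, and trend and robust eBayes 7 rises. The call of RpL39 was lost when any single array other than Su(var)3-9 replicate 2 was left out, and leaving out control replicate 3 gave 2 rises. The largest falls were those of the paralogs RpS19b (-2.06 ± 0.24), RpS5b (-1.69 ± 0.41) and RpL22-like (-1.37 ± 0.14), variants known from the germline. Of 26 translation factor genes 9 rose (34.6%, against 36.4% of all genes) and 2 fell (7.69%, against 26.0%), with a median of 0.09. Among them eEF1alpha2, the elongation factor form known from adult neurons and muscle, was at 0.56 ± 0.07. After centring 21 rose and 1 fell, and after cyclic loess 2 rose and 10 fell. Of 26 proteasome genes 12 fell (46.2%, against 26.0% of all genes) and none rose (against 36.4%), with a median of -0.18. Centring gave 2 falls and 1 rise, and cyclic loess 24 falls. Without control replicate 1 or 3 or egg replicate 1 or 3 the falls numbered 7, 6, 6 and 7.

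By chromosome, the share of rises was 33.7% on 2L, 35.0% on 2R, 34.9% on 3L, 36.5% on 3R and 42.4% on X, and that of falls was 29.8%, 27.6%, 25.5%, 25.8% and 20.6%. Chromosome 4 stood at 84.6% rises and 7.69% falls, or 55 and 5 of 65 genes, and after cyclic loess at 36 and 8. Kif3C, a kinesin, measured 5.42, 5.90 and 5.4 in the control and 6.65, 6.74 and 6.69 in egg (1.12 ± 0.11, adjusted p = 4.32e-06). The 3 egg arrays of this chromosome 4 gene lay above the control. The chromosome 4 genes that fell included CG32006 (-0.95 ± 0.18), Rnf11 (-0.65 ± 0.08) and the ATP synthase gene ATPsynbeta (-0.40 ± 0.07). Of 186 genes in windows next to centromeres 92 rose and 36 fell (median 0.22), and after cyclic loess 44 rose and 48 fell. Of 379 genes within 2 Mb of egg on 2R 126 rose (33.2%) and 109 fell (28.8%), and the median was 0.04. After centring these were 201 rises and 76 falls and after cyclic loess 57 and 154, so the balance reversed with the scaling. The largest there were DCTN3-p24, a dynactin subunit (1.5 ± 0.07), Pde8, a phosphodiesterase (1.34 ± 0.13), and CG30430 (-3.13 ± 0.31).

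**Figure D3:**
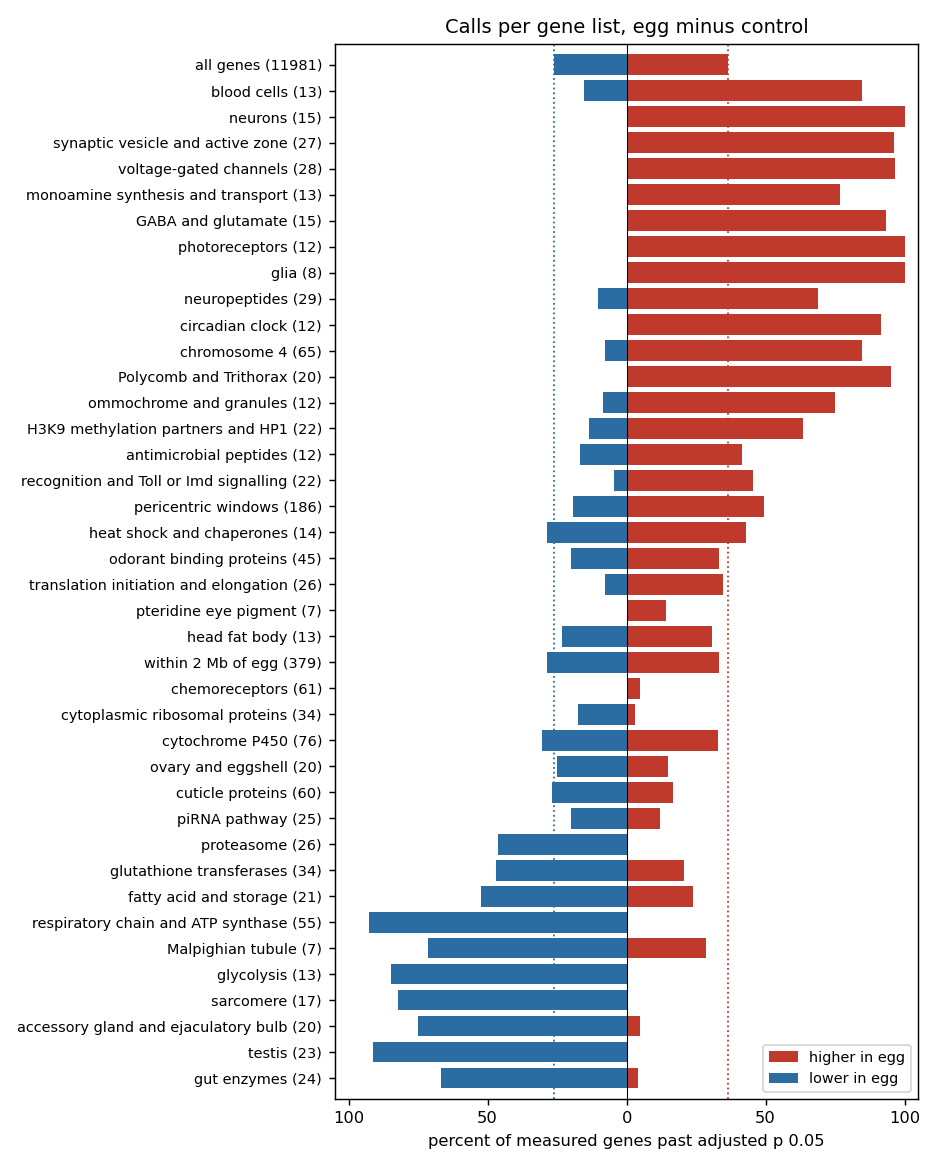
Percent of measured genes past adjusted p 0.05 in each list, higher in egg to the right in red and lower to the left in blue, ordered by the median change, with the number of measured genes after each name and dotted lines at the shares of all genes (36.4% and 26.0%). Neuronal, synaptic, photoreceptor and blood cell lists lie far to the right, and gut, testis, gland, sarcomere, glycolysis and respiratory lists far to the left.

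The same egg chromosome was also present beside the Su(var)3-9 mutation, and egg+Su(var)3-9 minus Su(var)3-9 shares no array with egg minus control. There 718 of 11981 genes passed (5.99%), 370 higher (3.09%) and 348 lower (2.90%). Counted by probe set 971 passed (5.17%), but 622 without Su(var)3-9 replicate 2 and 610 without egg+Su(var)3-9 replicate 2. Without egg+Su(var)3-9 replicate 3 the falls numbered 319 in place of 493 (2.63%). Marker lists of other tissues were closer in those groups, with testis medians of 4.52 to 5.17 in Su(var)3-9 and 5.12 to 6.32 in egg+Su(var)3-9. The median change there was 0.02 for the neuronal list, 0.20 for photoreceptors, 0.18 for glia and 0.06 for chromosome 4, and none of the 15 neuronal genes passed. Both comparisons called 325 genes in 1 direction, 209 higher (1.74%) and 116 lower (0.968%). The 325 became 205, 204 and 179 without Su(var)3-9 replicate 2, egg+Su(var)3-9 replicate 2 and egg+Su(var)3-9 replicate 3. The 209 are 4.79% of the rises of egg minus control and 56.49% of those beside Su(var)3-9, and the 116 are 3.73% and 33.33% of the falls. Opposite directions were called in 94 genes higher in egg minus control and lower beside Su(var)3-9 (0.785%) and in 81 the other way (0.676%). The share called in 1 direction in both was 2.71% of all genes, 2.86% on 2L, 3.13% on 2R, 3.12% on 3L, 2.79% on 3R, 1.39% on X and 6.15% on chromosome 4. It was 3.76% in the windows next to centromeres and 2.64% within 2 Mb of egg.

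The genes that rose in both included scavenger receptors and a long non-coding RNA. Sr-CIII measured 4.85, 4.87 and 4.76 in Su(var)3-9 and 6.94, 6.94 and 7.01 in egg+Su(var)3-9, a change of 2.14 ± 0.10 against 2.33 ± 0.10 without that mutation. The difference of 0.19 between both changes did not pass (adjusted p = 0.324). lncRNA:CR43242 measured 5.57, 5.62 and 5.63 in the control and 7.05, 7.19 and 7.15 in egg, and 5.86, 5.37 and 5.41 in Su(var)3-9 and 7.03, 7.19 and 6.97 in egg+Su(var)3-9. Its changes were 1.53 ± 0.12 and 1.52 ± 0.12 (difference 0.01, adjusted p = 0.981). Hml rose by 1.44 ± 0.09 and 1.18 ± 0.09 (difference 0.26, adjusted p = 0.142). CG6656 rose by 1.33 ± 0.08 and 1.06 ± 0.08 (difference 0.26, adjusted p = 0.0889), and baz, a cell polarity gene, by 1.76 ± 0.24 and 1.10 ± 0.24 (difference 0.66, adjusted p = 0.141). SPR, the sex peptide receptor, rose by 1.69 ± 0.11 and 1.05 ± 0.11, and CG31205 by 1.44 ± 0.08 and 2.83 ± 0.08.

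Falls in both included genes of the GstE cluster, of which GstE7 and GstE3 came first when genes were ranked by the smaller of both changes. GstE7 measured 8.24, 8.11 and 8.41 in Su(var)3-9 and 6.47, 6.72 and 6.54 in egg+Su(var)3-9, a change of -1.68 ± 0.10 beside -1.95 ± 0.10 (difference -0.27, adjusted p = 0.154). GstE3 changed by -1.65 ± 0.09 beside -2.12 ± 0.09, GstE5 by -1.08 ± 0.07 beside -1.58 ± 0.07 and GstE6 by -0.62 ± 0.08 beside -1.21 ± 0.08. GstE2 rose in both, by 1.27 ± 0.10 and 0.55 ± 0.10. The glutathione transferase list thus held 3 genes higher and 6 lower in both comparisons, 26.5% of its 34 genes. jim, a zinc finger gene, fell from 10.77, 10.56 and 10.62 to 9.62, 9.54 and 9.52 in egg, and from 10.39, 10.43 and 10.43 to 9.33, 9.40 and 9.27 beside Su(var)3-9. Its changes were -1.09 ± 0.07 and -1.08 ± 0.07 (difference -0.01, adjusted p = 0.958). Ugt35C1, a glucuronosyltransferase gene, changed by -1.32 ± 0.10 and -1.13 ± 0.10 (difference -0.20, adjusted p = 0.282), CG42675 by -1.36 ± 0.14 and -1.10 ± 0.14, and CG32457 by -1.62 ± 0.21 and -1.18 ± 0.21. Each of the last 2 had a difference that did not pass (adjusted p = 0.338 and 0.26). LysP, a lysozyme gene, CG31704 and the serpin gene Spn47C also fell in both, with changes of -3.0 and -1.46, of -2.71 and -1.57, and of -1.09 and -2.29.

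**Figure D4:**
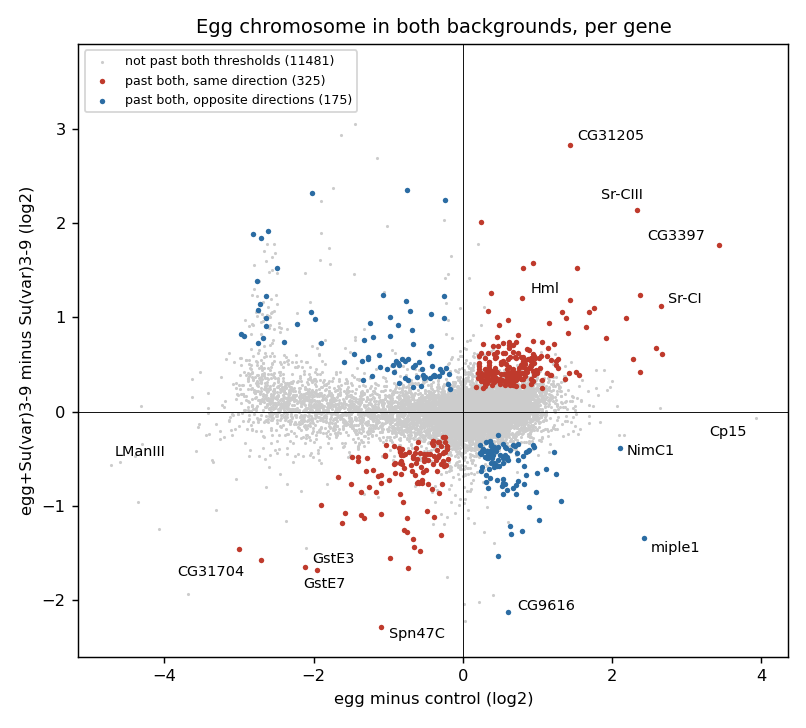
Change with the egg chromosome beside the Su(var)3-9 mutation (vertical axis, log2) against the change without it (horizontal axis, log2), 1 point per gene, with 325 genes past both thresholds in the same direction in red and 175 in opposite directions in blue. Sr-CIII, CG3397 and CG31205 lie at the upper right, GstE3, GstE7 and Spn47C at the lower left, and most genes far from 0 on the horizontal axis lie near 0 on the vertical one.

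For many genes both changes differed. The test of that difference, (egg minus control) minus (egg+Su(var)3-9 minus Su(var)3-9), passed for 5914 genes (49.4%) and for 7627 probe sets (40.6%). miple1 rose by 2.43 ± 0.08 without the Su(var)3-9 mutation and changed by -1.34 ± 0.08 beside it, where it measured 10.83, 10.74 and 10.86 in Su(var)3-9 and 9.32, 9.48 and 9.60 in egg+Su(var)3-9. Both single mutants thus lay above the control in this gene and the arrays with both mutations lay between. NimC1 rose by 2.10 ± 0.09 and changed by -0.38 ± 0.09 beside Su(var)3-9 (adjusted p = 0.0247). Cks30A changed by 0.04 ± 0.13 there (adjusted p = 0.935) and Cp15 by -0.07 ± 0.92 (adjusted p = 0.982). The error of Cp15 comes from the shared spread, which includes its widely differing egg arrays. Of the 15 neuronal genes all 15 passed the test of the difference, and so did 51 of 55 respiratory genes and 48 of 65 chromosome 4 genes. The Su(var)3-9 arrays, which lack the egg mutation, lay on the same side of the control as the egg arrays in all 3 lists. Neuronal medians were 10.29 to 10.30 in Su(var)3-9, 9.58 to 9.85 in the control and 10.60 to 10.62 in egg. In the same order, respiratory medians were 11.73 to 11.79, 12.18 to 12.295 and 11.77 to 11.85. Those of chromosome 4 were 9.03 to 9.12, 8.73 to 8.81 and 9.12 to 9.34.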

How the data were processed

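RNA of adult heads was hybridised to Affymetrix Drosophila arrays. Flies were reared at 25 °C and 70% humidity, per the labels' protocols. The authors deposited log2 values, 1 for each probe set and array. RMA and limma appear, per the submitters' processing notes, as their tools, while version and settings are not given in the sources used here. Arrays are scaled to each other by RMA, so a change in total RNA per head would not show. Groups were taken from the genotype label, and 1 column of per-sample values was empty and not used. From 18952 probe sets 183 Affymetrix controls were left out. By the platform annotation 13646 of the 18769 tested probe sets had a single gene symbol, and these alone were named, while 402 had several and 4721 lacked one. This left 11981 genes, 1094 of them with several probe sets, each represented by the one with the highest mean over all 12 arrays. More than 1 probe set was called in 577 genes, and in 32 of these the directions differed. Chromosomes and neighbours come from the Release 6 annotation.

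A model with 4 group means was fitted to the 12 arrays with limma 3.58.1 in R 4.3.3 (lmFit, eBayes). The residual degrees of freedom were 8 and the prior ones 4.162. Tests were two-sided, with Benjamini-Hochberg adjustment within each contrast and calls at an adjusted p under 0.05. The contrasts were egg minus control, egg+Su(var)3-9 minus Su(var)3-9, and their difference. The fit was tested on simulated data. Python 3.11.15, numpy 2.4.6, pandas 2.3.3 and matplotlib 3.10.9 served for tables and figures. Expression arrays give no depth, and their number limits the precision.

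Of 1074 listed genes in 37 lists 886 were measured. The genes compared, the lists and the tests were chosen with earlier results of these data known. Lists are described by counts and medians beside those of all genes and were not tested. Genes next to centromeres were those past 22 Mb on 2L or X or 23 Mb on 3L, or before 5.4 Mb on 2R or 4.5 Mb on 3R, in Release 6. The rule for named genes took the 12 largest rises and 12 largest falls without overlap between groups, the 10 largest in each direction called alike in both egg comparisons, the 5 largest differences in each direction, the 2 largest and 2 smallest changes of each list, up to 3 list members against the list's direction, and the 4 largest in each direction near egg, on chromosome 4 and near centromeres. The alternatives were a fit of only the groups compared, a replicate block, eBayes with a trend and robust, weights per array, leaving out probe sets dimmer than the 40th percentile of the mean, centring of array medians, cyclic loess, a minimum change of 1.5-fold, averaging all probe sets of a gene for lists, and leaving out each array in turn. Deviations of same-numbered egg and control arrays from their group means correlated at -0.11, -0.05 and 0.00, so the replicate numbers were not taken as pairs.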

Additional observations from a re-analysis of the deposited data

Results flagged for a closer look

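The change with the egg chromosome differed with and without the Su(var)3-9 mutation in 7627 probe sets (limma, test of the difference, adjusted p under 0.05). The values here are egg minus control less egg+Su(var)3-9 minus Su(var)3-9, on the log2 scale. Among the genes with the largest rises it was 4.0 for Cp15, 3.77 for miple1, 2.61 for Cks30A, 2.06 for path, 1.96 for Cyp6a17, 1.91 for CG9377, 1.72 for Ir76a, 1.67 for CG3397, 1.53 for Sr-CI, 1.19 for Obp19b and 1.14 for CG30083. Among those with the largest falls it was -4.37 for Mal-A4, -4.15 for LManIII, -4.06 for CG15617, -3.98 for Mal-A7, -3.96 for Jon25Biii, -3.92 for Jon44E, -3.77 for Mal-A1, -3.40 for CG17752, -3.15 for CG8093 and -2.83 for Muc68D. Each gene of this second group measured lower on every Su(var)3-9 array than on every control array. In Su(var)3-9 LManIII was at 4.02, 4.21 and 6.83, and CG17752 at 4.63, 4.66 and 4.91. From such low levels a further fall beside the Su(var)3-9 mutation could hardly show.

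Genes called in the same direction in both comparisons could differ in size. This held for SPR (0.64), whose rise was larger without the Su(var)3-9 mutation, and for CG31205 (-1.39), whose rise was larger beside it. GstE3 (-0.47), GstE5 (-0.50), CG31704 (-1.14) and LysP (-1.54) fell further without that mutation, and Spn47C (1.20) fell further beside it.

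The largest positive differences also included CG9616 (2.73) and NimC1 (2.48), both of which rose in egg against the control and fell beside the Su(var)3-9 mutation. The largest negative ones were those of lncRNA:CR9284 (-4.69), Ebp (-4.57), CG15219 (-4.55), CG2127 (-4.53) and EbpII (-4.50). Ebp and EbpII encode ejaculatory bulb proteins. Ebp measured 13.29, 13.03 and 13.10 in the control, 11.32, 11.61 and 11.60 in egg, 4.14, 4.29 and 8.08 in Su(var)3-9 and 7.17, 10.23 and 7.93 in egg+Su(var)3-9. Its arrays within the last 2 groups lay far apart. No group had enough arrays for a test of single outlying arrays.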

How the results depend on the processing

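Counts in this section are probe sets unless stated. With centring of array medians egg minus control gave 11087 rises, and the difference of both egg changes gave 11988 calls with 9615 positive. With cyclic loess these were 3153 rises and 2048 positive differences. With a minimum change of 1.5-fold egg minus control gave 4931 calls with 2471 rises, the egg change beside Su(var)3-9 gave 392 with 173 rises and 219 falls, the difference gave 4805 with 2390 positive, and 79 genes were called alike in both comparisons. That minimum removes small changes by its construction, and for both scalings the cause was not tested. Leaving out each array in turn gave 8685 to 9648 calls for egg minus control (5300 to 6070 rises, 3293 to 3589 falls), 610 to 1148 beside Su(var)3-9 (265 to 572 and 319 to 576), 6858 to 8110 differences (4014 to 4996 and 2780 to 3114) and 179 to 402 genes called alike. The other alternatives kept each of these counts within 1.5 times. The replicate block gave 9318, 761 and 7258 calls and 256 genes called alike, and the same-numbered arrays did not deviate together.

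Of 133 named genes 1 lost its call with the replicate block (RpL39, adjusted p = 0.0658), 5 with centring and 4 with cyclic loess. GstE1 reversed with cyclic loess (-0.12, adjusted p = 0.151). With 3 arrays per group the median standard error of a change was 0.10.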
